A study of Mus musculus with 24 samples.

Results

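The cytosolic ribosomal proteins are the protein parts of the ribosomes that translate messenger RNA in the cytoplasm, and 83 of the 12767 genes in the deposited table carry one of their names. A gene was taken where its symbol was Rpl or Rps followed by a number with any suffix of x, a, l, y, p or digits, or Rpsa, Rplp0, Rplp1 or Rplp2. All 83 are annotated as protein coding, with 48 in the large subunit, 32 in the small subunit and 3 in the P stalk, and all of them were tested. The protein-coding gene Rpl10l and 6 annotated pseudogenes also have such names and were not analysed here. Fau, which also encodes a ribosomal protein, falls outside the naming rule.

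RNA was sequenced from cells bound by CD11c MicroBeads, a magnetic enrichment for dendritic cells, taken from the mesenteric lymph nodes of mice with MC38 tumours, a colon carcinoma line grown under the skin. The protocol names female C57BL/6 mice of 6 to 8 weeks, wild type or Myd88 knockout. Y-linked messages were nevertheless counted in every library labelled knockout, as given below. The mice received 1000000 tumour cells and were mixed before being assigned at random. Treatment began after 7 to 10 days at a mean tumour size of 100 mm3. Each genotype had 4 groups of 3 libraries, 24 in all: IgG control antibody, anti-PD-1 antibody, which blocks an inhibitory receptor of T cells, live LGG by mouth (the usual name of the probiotic Lacticaseibacillus rhamnosus GG), and anti-PD-1 antibody plus live LGG, here called the combination. Doses were given 2 times a week for 2 to 3 weeks, with 200 ug of antibody per mouse in the groups with antibody. The labels list no antibody in mice given LGG by itself, and that contrast with IgG mice is therefore also one in the antibody named. Myd88 encodes an adaptor for most Toll-like receptors. No label says that the 3 libraries of a group came from separate animals, so p-values measure only the spread between these libraries, which may be technical.

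Ribosomal proteins assemble with ribosomal RNA in the nucleolus into a small subunit that reads the message and a large subunit that joins amino acids, and the P stalk of the large subunit recruits elongation factors. Their messages are short, abundant and long-lived, and many start with a run of pyrimidines, the terminal oligopyrimidine tract, through which mTOR signalling adjusts their translation. In dendritic cells, activation by microbial products changes protein synthesis together with metabolism, and the transcription factor Myc drives many genes of ribosome production.

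Start sites are shown for 6 members on which the results below turn, to show the pyrimidine tract for which these messages are known. RefSeq sequences of GRCm38.p6 covered 63 of the 83 members, and each line gives 40 bases before the annotated start and 20 after it, 5′ to 3′ on the strand of the gene, with the pyrimidine run in capitals. The windows lie at chr3:90213629-90213688 (minus strand) for Rps27, chr14:18270967-18271026 (minus) for Rpl15, chr2:39005112-39005171 (minus) for Rpl35, chr3:28805468-28805527 (plus) for Rpl22l1, chr10:128626487-128626546 (minus) for Rps26 and chr17:24720023-24720082 (plus) for Rps2.
Rps27: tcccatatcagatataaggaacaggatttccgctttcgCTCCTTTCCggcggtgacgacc
Rpl15: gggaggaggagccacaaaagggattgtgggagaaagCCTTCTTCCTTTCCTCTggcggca
Rpl35: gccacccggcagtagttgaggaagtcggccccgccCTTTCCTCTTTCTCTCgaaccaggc
Rpl22l1: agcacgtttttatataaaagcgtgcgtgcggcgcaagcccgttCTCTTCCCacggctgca
Rps26: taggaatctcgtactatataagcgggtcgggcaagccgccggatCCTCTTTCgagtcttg
Rps2: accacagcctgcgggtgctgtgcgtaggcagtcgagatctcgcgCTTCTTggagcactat
The run was counted on the strand shown, from a C no more than 5 bases before or after the annotated start. Pyrimidines upstream of that C were not counted, and in Rpl35 they continue upstream of the capitals. The run counted in this way held 17 pyrimidines in Rpl15, 16 in Rpl35, 9 in Rps27, 8 in Rpl22l1 and Rps26, and 6 in Rps2.

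A run of at least 5 such pyrimidines was present in 29 of the 63 members matched (46.0%) and in 5718 of the 27025 genes of the RefSeq table (21.2%). In windows of 300 bases, 250 before and 50 after the start and read on both strands, the letters CCGGAAG, the core of an ETS-family motif, occurred in 41.3% of the members matched and in 9.93% of all genes. The letters CTTTCC occurred in 52.4% of members and 29.3% of all genes, and TATAAA in 11.1% of members and 15.7% of all genes. None of the 75 member windows held matches of these 3 motifs that overlapped each other. In wild-type LGG against IgG the median log2 difference was 0.51 in the 29 members with the run and 0.39 in the 34 without, and in the knockout combination against IgG it was -0.50 and -0.36.

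Most members had high counts. Between 24531528 and 49272593 reads fell in listed genes per library, and the members had a median level of 25917 normalised counts, the deposited unit of reads divided by a size factor for the library. Per kilobase of transcript, the highest mean levels over the 24 libraries belonged to Rplp1 (147258 normalised counts per kilobase), Rpl41 (112872), Rps12 (69232), Rps27 (68821) and Rps14 (62704). Rplp1 is an acidic stalk protein, Rpl41 a very small basic peptide of the large subunit, and Rps12, Rps27 and Rps14 sit in the small subunit. The lowest per kilobase were Rpl3l (26.0), Rpl39l (28.9) and Rpl24 (35.8). Rpl3l and Rpl39l are paralogs used mainly in muscle and testis, whereas Rpl24 is a core protein of the large subunit. Its low count stood beside 81.7% of its 50-base windows found in other genes and 47.0% of its exon bases overlapped by another gene, Gm28037; whether the counting set its level was not tested. Such sharing was the rule, since 80 of the 83 members shared at least 1 window of 50 bases with another gene and 45 shared over 50% of them, with 98.6% for Rps27. A member's absolute level is therefore uncertain, and reads from near-identical copies cannot be separated here.

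The share of reads in the members differed widely between libraries labelled knockout. The 83 members took 6.47% to 7.39% of the reads in wild-type IgG, 5.86% to 6.44% in wild-type anti-PD-1, 7.60% to 8.49% in wild-type LGG and 6.42% to 7.42% in the wild-type combination. Among libraries labelled knockout they took 6.89% to 8.01% in IgG and 5.33% to 5.60% in the combination. The knockout anti-PD-1 libraries held 9.43%, 4.99% and 14.6% (replicates 1, 2 and 3), and the knockout LGG libraries 5.45%, 8.98% and 4.87%. Replicates 2 and 3 of knockout anti-PD-1 and replicate 2 of knockout LGG were left out as an alternative, a choice made with earlier results of these data known, and are called here the 3 libraries that stand apart. The members alone do not single them out: replicate 1 of knockout anti-PD-1 (9.43%, a median of 0.67 log2 above the mean of all libraries) lay further out than replicate 2 of knockout LGG (8.98%, 0.61), and replicate 3 of knockout LGG (4.87%, -0.50) lay beside replicate 2 of knockout anti-PD-1 (4.99%, -0.55). The knockout anti-PD-1 group is then 1 library and knockout LGG 2.

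**Figure D1:**
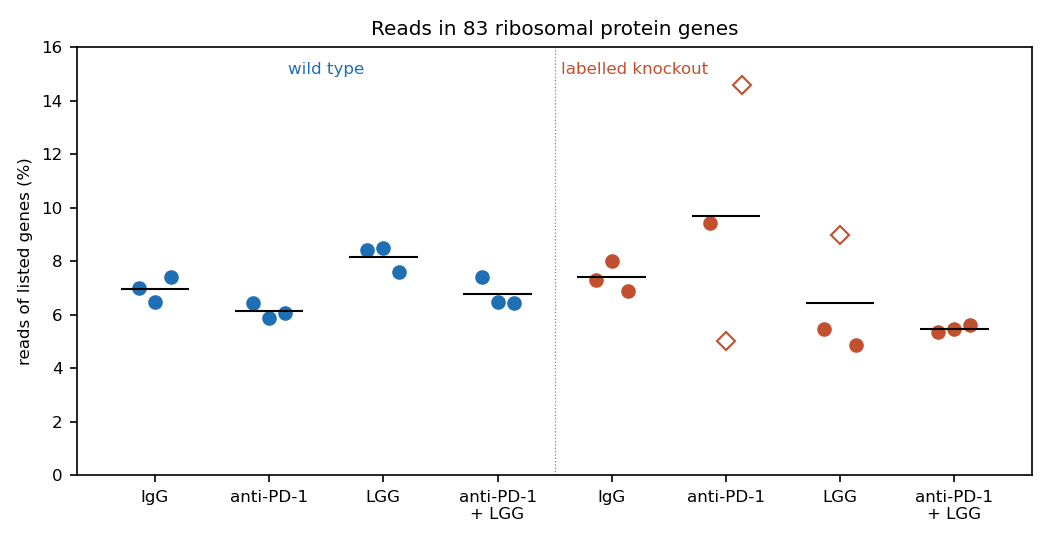
Share of reads of listed genes that fell in the 83 ribosomal protein genes (vertical axis, percent), by group (horizontal axis), with 1 point per library, black bars for the group means, and open diamonds for the 3 libraries that stand apart. Wild-type LGG lay at 7.60% to 8.49%, above wild-type IgG at 6.47% to 7.39%, and knockout anti-PD-1 spread from 4.99% to 14.6%.

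The members moved together in these libraries, and so did other short messages. Replicate 3 of knockout anti-PD-1 lay at a median of 1.44 log2 above the mean of all libraries for the members, 1.24 for 77 mitochondrial ribosomal protein genes and 0.96 for 850 other genes with a transcript under 1000 bases, and genes of the mitochondrial genome took 0.431% of its reads against at least 1.21% elsewhere. Replicate 2 of that group lay at -0.55, -0.17 and -0.42 for the same 3 sets, and replicate 2 of knockout LGG at 0.61, 0.58 and 0.56. The median SD of log2 values within groups was 0.42 for the members and 0.22 for all genes over the 8 groups, and 0.12 and 0.11 over the 6 groups without those libraries. The SD was largest in Rplp2 (0.68), Rpl38 (0.67) and Rpl36 (0.63) and smallest in Rpl7l1 and Rpl15 (both 0.13) and Rpl22l1 (0.16). Rpl7l1 and Rpl22l1 are paralogs of core large-subunit proteins, and Rpl15 binds ribosomal RNA in the large subunit. All tests used limma with 1 estimate of spread per gene over the 24 libraries, so each comparison below, in wild type as well, is given with and without the 3 libraries. Errors after a log2 difference are standard errors of that model.

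**Figure D2:**
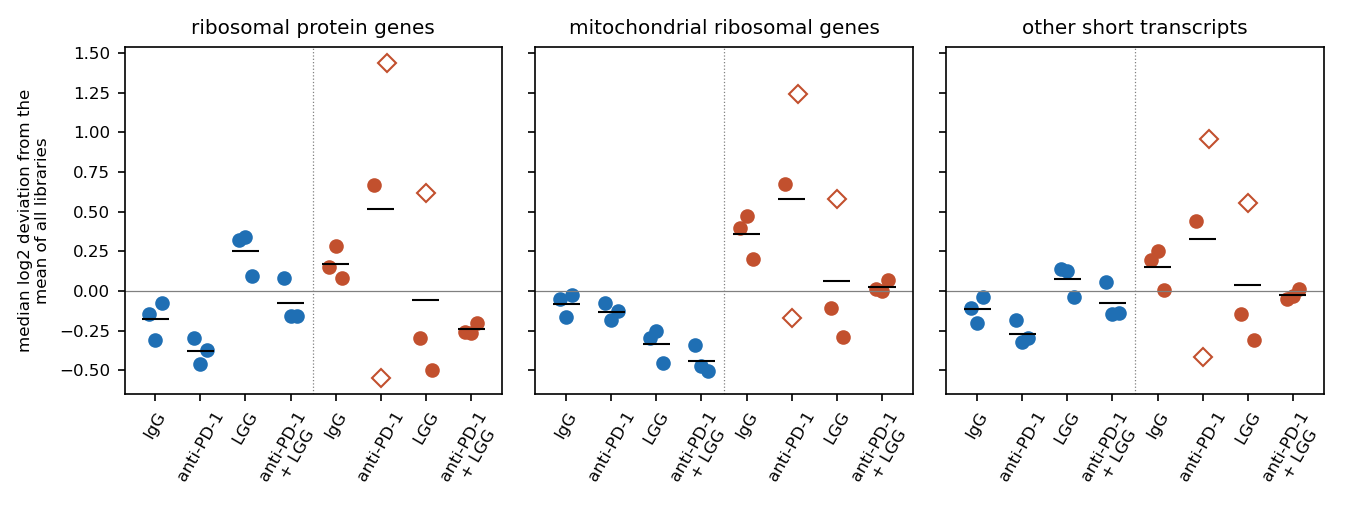
Median log2 deviation of each library from the mean of all 24 libraries (vertical axis) for the 83 ribosomal protein genes, 77 mitochondrial ribosomal protein genes and 850 other genes with transcripts under 1000 bases, by group (horizontal axis), wild type left and labelled knockout right in each panel; bars are group means and open diamonds the 3 libraries that stand apart. Replicate 3 of knockout anti-PD-1 was highest in all 3 sets, at 1.44, 1.24 and 0.96.

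Some facts of the whole series bear on every comparison between genotypes. Myd88 itself was counted at 1723 to 2232 in wild-type libraries and at 697 to 1837 in libraries labelled knockout, which overlap; which exons the allele lacks is not given in the sources used here, so this checks no label. The Y-linked gene Ddx3y was at 0 to 4.50 normalised counts in wild type and 1241 to 2136 in every library labelled knockout, although the protocol names female mice, so genotype and sex cannot be told apart. The Y-linked genes Eif2s3y (0 to 6.43 and 1291 to 1609), Uty (0 to 1.77 and 217 to 590) and Kdm5d (0 to 2.41 and 191 to 636) showed the same. Itgax, which encodes CD11c, was present in every library (9637 to 25427 in wild type, 33061 to 53698 in knockout), whereas Flt3, a receptor of the dendritic lineage, was at 85.2 to 676 in wild type and 5.84 to 56.7 in knockout. Both also differed between treatments. Mean Itgax was 23091 in wild-type IgG and 9828 in wild-type LGG, but 36783 and 45009 in the same knockout groups. Mean Flt3 was 110 and 640 in those wild-type groups, and 8.09 and 50.4 in knockout. In these bulk samples, fewer cells of a type and less RNA per cell cannot be told apart.

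In wild-type mice most ribosomal protein messages lay higher with LGG, and few passed the test. The median member was 0.47 log2 above IgG, against -0.00 for all genes tested, and 79 of 83 members lay above 0. Of the 83, 6 rose and none fell at an adjusted p under 0.05, where 27.4% of all genes were called higher and 28.2% lower; 8 members had an unadjusted p under 0.05. With the 3 libraries left out, none of which is in this comparison, 68 members rose and 1 fell (36.7% of all genes in each direction), and edgeR and DESeq2 on whole reads called 6 and 7 higher and none lower. Without any 1 of the 6 libraries compared, 3 or 4 were called higher. All 3 LGG libraries were above all 3 IgG libraries in 61 members (37.4% of all genes) and below in 1 (37.1%). The small subunit had a median of 0.51 (27 of 32 members above without overlap) and the large subunit with the stalk 0.42 (34 of 51).

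Rps27, a zinc-binding protein of the small subunit encoded at chr3:90212522-90213651, rose the most among the called members. It was at 17255, 14661 and 18010 normalised counts in the IgG libraries and at 36154, 35874 and 33357 in the LGG libraries. Every LGG value was well above every IgG value, and the difference was 1.08 ± 0.44 log2 (limma adjusted p = 0.0422).

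Rpl22l1, a paralog of the RNA-binding protein Rpl22 and known to be held down by it, lies at chr3:28805436-28807424. It went from 329, 290 and 306 to 561, 570 and 521, again without overlap, by 0.83 ± 0.13 log2 (limma adjusted p = 2.04e-05). Its counterpart Rpl22 was higher too, at 8290, 7884 and 8880 in IgG and 12516, 13134 and 10833 in LGG, so that Rpl22l1 counts were 3.45% to 3.97% of Rpl22 counts in IgG and 4.34% to 4.80% in LGG.

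Rpl34 (chr3:130726831-130730398), a small protein of the large subunit, read 19503, 17616 and 19692 in IgG and 34214, 33138 and 30074 in LGG (0.78 ± 0.31, limma adjusted p = 0.0405). Rpl15 (chr14:18267823-18271391) had the least spread: 14470, 13711 and 14264 against 19509, 19422 and 17391 (0.41 ± 0.11, limma adjusted p = 0.00445). Both sets of 3 LGG libraries were above their IgG libraries, and for Rpl15 the third LGG library was the lowest of its group. Rpl23a, a docking site for nascent chains at the exit tunnel, went from 250, 187 and 264 to 415, 417 and 353 (0.77 ± 0.25, limma adjusted p = 0.013). Its exons at chr11:78180932-78183584 are overlapped over 62.3% of their bases by Tlcd1 and Snord42b. Whether this overlap raised or lowered its count was not tested. The sixth call was Rpl7, at 23548, 21530 and 24394 in IgG and 37523, 38167 and 31516 in LGG (0.62 ± 0.26, limma adjusted p = 0.0459), whose product binds ribosomal RNA in the large subunit.

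Not all members went up. Rps2, which lies at the messenger RNA entry of the small subunit, was at 55710, 52405 and 60106 in IgG and 43719, 42551 and 39463 in LGG, the 1 member whose LGG libraries all lay below (-0.42 ± 0.22, limma adjusted p = 0.12; 1 of the calls without the 3 libraries). Rpl3, at the catalytic centre of the large subunit, was at 38007, 34835 and 39586 against 35624, 35719 and 30167, which overlap (-0.15). The stalk gene Rplp0 was at 77443, 70747 and 85451 in IgG and 99474, 98772 and 84382 in LGG, also overlapping.

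Transcript length, GC content and scaling moved this result. With the trend of each library on length and GC removed, the median member difference was 0.14 (all genes -0.04), with 12 members higher and 4 lower (29.7% and 33.7% of all genes), and 3 of the 6 calls, those of Rps27, Rpl34 and Rpl7, were among them. Scaling each library to the total of its listed genes shifted all genes by -0.16 and left the members at 0.31. The other short transcripts were higher by a median of 0.19. Across the 83 members the log2 difference had a correlation of -0.16 with log2 length and -0.28 with GC content, given as a description over genes that share libraries.

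The cells collected differed as well. Summed counts of 13 macrophage markers were 325062 to 355887 in wild-type IgG and 110899 to 125332 in wild-type LGG, those of 15 T cell markers 10238 to 10945 and 14360 to 15363, and those of 5 plasmacytoid dendritic cell markers 8284 to 9334 and 27802 to 32723. Conventional dendritic cell markers summed to 95628 to 101906 and 119237 to 128024, NK cell markers to 36982 to 39195 and 54245 to 62417. Stromal markers summed to 1196 to 1324 and 3674 to 3764. Of the macrophage markers 10 fell and 1 rose, and of the T cell markers 7 rose and 2 fell. Of 11 conventional dendritic cell markers 6 rose and 4 fell, where 27.4% of all genes were called higher and 28.2% lower. None of these markers was at 0 in either group, and their part in the ribosomal protein difference was not tested.

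Genes of ribosome biogenesis were lower in the same comparison. Of 50 tested, 43 fell and 4 rose with LGG in wild type (median -0.90; 44 and 4 without the 3 libraries), where 28.2% of all genes were called lower and 27.4% higher, among them Rrp12, a factor for export of pre-ribosomes, which fell by 1.99 ± 0.10 log2 (limma adjusted p = 1.32e-12), and Gnl3, the nucleolar GTPase nucleostemin (-1.40 ± 0.07, limma adjusted p = 1.55e-12). Sbds, which releases a block on the new large subunit, rose instead (1.64 ± 0.08, limma adjusted p = 7.68e-13). Of 5 chaperones of ribosomal proteins, 4 fell, led by Grwd1 (-1.81 ± 0.14, limma adjusted p = 1.25e-09) and Heatr3 (-1.41 ± 0.14). Myc went from 2336 ± 138 to 981 ± 69.2 (SD, n = 3; limma adjusted p = 3.99e-10), and its antagonist Mxd1 from 1137 ± 44.5 to 9300 ± 169. The 24 genes listed as mTOR and Myc regulators were split, with 7 higher, 9 lower and 8 not called (median -0.08), and 9 higher and 11 lower without the 3 libraries. Among 77 mitochondrial ribosomal genes 18 fell and 4 rose (median -0.27), a share of lower calls below that of all genes in the fit of all libraries. Of 21 other genes listed as translation factors with pyrimidine-tract messages, 4 rose and 2 fell (median 0.16), both below the shares of all genes in the fit of all libraries. The fit without the 3 libraries called 11 of these 21 higher and 6 lower (36.7% of all genes in each direction). The tract was not looked up for this list, which also holds the nucleolar chaperone Npm1. Fau, outside the naming rule, rose by 0.93 ± 0.38 (limma adjusted p = 0.0428).

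**Figure D3:**
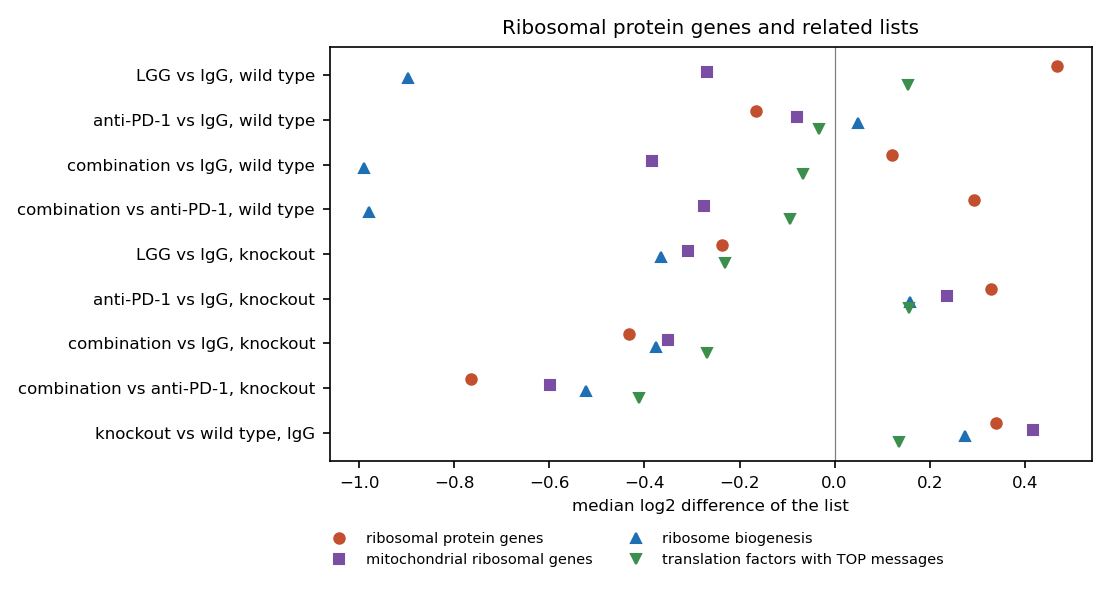
Median log2 difference (horizontal axis) of 83 ribosomal protein genes, 77 mitochondrial ribosomal protein genes, 50 ribosome biogenesis genes and 21 genes listed as translation factors in 9 comparisons (vertical axis), fitted on all 24 libraries. In wild-type LGG against IgG the ribosomal protein genes lay at 0.47 and the biogenesis genes at -0.90, and in the knockout combination against IgG at -0.43 and -0.38.

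The wild-type combination gave a smaller and mixed picture. The median member was 0.12 above IgG (all genes 0.01), with 1 member higher and 1 lower (26.7% and 28.3% of all genes). Without the 3 libraries 22 rose and 8 fell (35.9% and 36.6% of all genes), and 26 members lay above and 8 below IgG without overlap (38.2% and 38.3%). With the length and GC trend removed the median was -0.02, and under scaling to the total 0.01 (all genes -0.10), so no direction of the whole set is given. Without any 1 of the 6 libraries compared, 1 or 2 members were higher and 0 or 1 lower. Summed macrophage markers were 325062 to 355887 in IgG and 116482 to 131684 in the combination (2 of 13 higher, 10 lower). T cell markers were 10238 to 10945 and 13854 to 14658 (6 of 15 higher, 2 lower). Conventional dendritic cell markers were 95628 to 101906 and 115560 to 122525 (5 of 11 higher, 4 lower). The part of these markers in the ribosomal protein difference was not tested.

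Rpl22l1 rose, at 465, 433 and 439 against 329, 290 and 306 in IgG (0.53 ± 0.13, limma adjusted p = 0.00196; 0.17 and not called with the length and GC trend removed). Rps2 fell, at 38554, 34554 and 33430 against 55710, 52405 and 60106 (-0.66 ± 0.22, limma adjusted p = 0.0159), and in both genes the groups were apart. Rps27 had the highest difference of all members, at 33793, 27479 and 28562 against 17255, 14661 and 18010, apart as well, and missed the threshold (0.85 ± 0.44, limma adjusted p = 0.111; 1.50e-07 without the 3 libraries). Rpl3 stood at 28065, 25592 and 25139, below every IgG library (-0.51).

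Against anti-PD-1 alone, the combination had a median member difference of 0.29 in wild type (all genes 0.02), with 2 members higher and 0 lower (27.7% and 29.1% of all genes) and 8 at an unadjusted p under 0.05. Without the 3 libraries the counts were 54 and 7 (37.0% and 37.5%), and 58 and 8 members did not overlap (38.9% and 38.7%). Rps27 was at 12878, 10886 and 14398 with anti-PD-1 alone, lower than in any combination library (1.24 ± 0.44, limma adjusted p = 0.0209). Rpl22l1 was at 344, 304 and 327, also below every combination library (0.46 ± 0.13, limma adjusted p = 0.00607), but at -0.04 with the length and GC trend removed, where the median of the members was -0.02. Without any 1 of the 6 libraries compared, 1 to 3 members were higher. This comparison and the one against IgG share the combination libraries.

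Anti-PD-1 alone in wild type called no member in limma, edgeR or DESeq2, where 0.00784% of all genes were called higher and 0.0235% lower; 1 member had an unadjusted p under 0.05 in limma. The median member was -0.17 (all genes -0.01) and 80 of 83 lay below 0, with 22 members below IgG without overlap (16.3% of all genes) and 0 above (16.8%). Without the 3 libraries 9 members were called lower (4.09%) and 0 higher (4.37%), and with the length and GC trend removed none were, with a median of -0.03. Rpl27, a large-subunit protein, stood at 25925, 23403 and 26386 in IgG and 21836, 18409 and 20159 with anti-PD-1 (-0.33 ± 0.27, limma adjusted p = 0.879). Rpl3l, at 31.6, 35.2 and 32.8 against 18.8, 12.9 and 15.1, had the smallest p (0.0363 unadjusted, 0.583 adjusted by limma) and rests on few reads. Rpl35 was at 1466, 1221 and 1633 against 1219, 1109 and 1088 (-0.33 ± 0.30, limma adjusted p = 0.899).

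Libraries labelled knockout started from a different level. In IgG the median member was 0.34 above wild type (all genes 0.01), with 5 members higher and 1 lower (19.1% and 20.0% of all genes), and 56 and 1 without the 3 libraries (32.8% and 31.1%). Without any 1 of the 6 libraries compared, 0 to 2 were called higher and 0 or 1 lower. In 53 members every knockout library was above every wild-type library (34.1% of all genes) and in 2 below (32.7%). Scaled to the total of listed genes, all genes shifted by -0.25 and the members stood at 0.08 with 1 higher and 2 lower. The other short transcripts were higher by a median of 0.30, and 17 of 77 mitochondrial ribosomal genes rose and 1 fell (median 0.42). Markers of other cells moved strongly in this comparison: 14 of 15 T cell markers fell (median -3.54; summed 10238 to 10945 in wild type and 1264 to 1393 in knockout), 7 of 7 NK cell markers (-3.50; 36982 to 39195 and 3371 to 3914), 7 of 8 B cell markers (-2.37; 1085 to 1108 and 228 to 244), 5 of 6 neutrophil markers (-2.90; 1238 to 1273 and 422 to 446) and 4 of 5 plasmacytoid markers (-1.88; 8284 to 9334 and 6006 to 7308). Ly6d, a plasmacytoid marker, was the 1 of these at 0, in knockout. Summed macrophage markers were 325062 to 355887 and 438648 to 482286, with 4 of 13 higher and 4 lower. Their part in the ribosomal protein difference was not tested.

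The X-linked gene Rpl39, for a very small protein lining the exit tunnel, was at 11633, 10413 and 11617 in wild type and 21884, 24358 and 21177 in knockout (1.00 ± 0.36, limma adjusted p = 0.0352). Rps27l (chr9:66946086-66949516), the p53-inducible paralog of Rps27, was at 4688, 4102 and 4315 against 8698, 8996 and 7583 (0.95 ± 0.31, limma adjusted p = 0.0189). Rps26 (chr10:128624534-128626747), which contacts messenger RNA at the exit of the small subunit, was at 25886, 23367 and 26899 against 44238, 49565 and 46578 (0.88 ± 0.32, limma adjusted p = 0.0372).
In these 3 genes every knockout library was far above every wild-type library. Rps25, needed for some internal ribosome entry sites, rose by 0.78 ± 0.30 (limma adjusted p = 0.0462), and Rpl7l1 by 0.35 ± 0.10 (limma adjusted p = 0.0124).

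Rpl35 was the 1 member that fell, at 1466, 1221 and 1633 in wild type and 598, 1121 and 639 in knockout, with no overlap (-0.92 ± 0.30, limma adjusted p = 0.0195). It is a large-subunit protein near the exit tunnel, encoded at chr2:39001580-39005624, and 66.2% of its exon bases are overlapped by Arpc5l and Wdr38, so that reads of these genes cannot be told apart from its own where they overlap. The second knockout library was nearly as high as the lowest wild-type library.

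In knockout, LGG had the opposite sign. The median member was -0.24 against IgG (all genes 0.00), 72 of 83 lay below 0, and 1 member rose and 2 fell (18.1% and 14.2% of all genes). Replicate 2 of knockout LGG was far above the other 2 libraries, so that 1 member lay wholly below and 1 wholly above IgG (19.1% and 21.9% of all genes). Without replicate 3 the median was -0.01 and without replicate 1 -0.12. Without replicate 2 alone it was -0.57 with 9 members lower, and without all 3 libraries it was -0.57 with 74 lower and 1 higher (29.4% and 32.0%). When only the knockout IgG and LGG libraries were fitted, none was called, with 2 at an unadjusted p under 0.05. Without replicate 1 or 2 of IgG, or 1 or 3 of LGG, no member was called lower, and without replicate 3 of IgG 1 was.

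Markers of other cells moved here as well. With LGG, 15 of 15 T cell markers rose (median 2.07; summed 1264 to 1393 in IgG and 4051 to 4687 in LGG), 7 of 7 NK cell markers (1.87; 3371 to 3914 and 11539 to 17620), 5 of 5 plasmacytoid markers (1.41; 6006 to 7308 and 9755 to 18746) and 6 of 8 B cell markers (2.09; 228 to 244 and 348 to 493). Summed macrophage markers were 438648 to 482286 and 321676 to 462873, with 2 of 13 higher and 4 lower. Ly6d was the 1 of these markers at 0, in IgG, and their part in the ribosomal protein difference was not tested.

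Rpl15 fell here, from 15613, 16357 and 15184 in IgG to 11956, 15139 and 11125 in LGG (-0.32 ± 0.11, limma adjusted p = 0.0373). Even replicate 2, at 15139, was just under the lowest IgG library, but the call was lost without any 1 library other than replicate 2 of LGG. Rpl7l1 was at 4450, 4521 and 4059 against 3421, 4131 and 3263 (-0.27 ± 0.10, limma adjusted p = 0.0498), where replicate 2 overlapped IgG, and this call was lost without replicate 1 or 2 of IgG or 1 or 3 of LGG. Rpl35 rose from 598, 1121 and 639 to 1272, 2071 and 1009 (0.88 ± 0.30, limma adjusted p = 0.0301), with 1009 below the second IgG library. Leaving out replicate 1 or 3 of IgG, or 1 or 2 of LGG, removed this call.

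In the knockout combination most members lay below IgG, and few passed the test. Its 3 libraries lay close together, the median member was -0.43 against IgG (all genes 0.02), 79 of 83 lay below 0, and in 71 members every combination library was below every IgG library (30.1% of all genes), with 1 above (32.9%). In the fit of all libraries 2 members fell and 0 rose (14.4% and 19.1% of all genes) and 9 had an unadjusted p under 0.05; without the 3 libraries 68 fell and 1 rose (27.1% and 30.1%), and DESeq2 called 7 lower and 1 higher. Without any 1 of the 6 libraries compared, 1 was lower. With the length and GC trend removed the median was -0.39, with 39 lower and 1 higher (26.9% and 15.8%), and under scaling to the total -0.45. The other short transcripts stood at -0.16 and the mitochondrial ribosomal genes at -0.35.

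Rps26 fell from 44238, 49565 and 46578 to 25480, 26137 and 26054 (-0.85 ± 0.32, limma adjusted p = 0.0499), within the range of wild-type IgG. Rpl15 fell from 15613, 16357 and 15184 to 12041, 11935 and 12064 (-0.39 ± 0.11, limma adjusted p = 0.0113; 0.0524 with the length and GC trend removed). Both groups were tight and apart in both genes. Rps27l was at 8698, 8996 and 7583 and then 4885, 4728 and 4909, and Rpl39 at 21884, 24358 and 21177 and then 12088, 12627 and 11294 (limma adjusted p = 0.0635). Rpl35 went the other way, from 598, 1121 and 639 to 1258, 1322 and 1316 (0.78 ± 0.30, limma adjusted p = 0.0508), above every IgG library.

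Of the 50 biogenesis genes 26 fell and 2 rose in the knockout combination against IgG (median -0.38), where 14.4% of all genes were called lower and 19.1% higher. In the same fit 2 of the 83 ribosomal protein genes were lower, although their median was -0.43. With the 3 libraries left out, 37 biogenesis genes fell and 3 rose, and 68 ribosomal protein genes fell and 1 rose. Among the biogenesis genes that fell were Nop58, a core protein of methylation-guiding snoRNPs (-1.11 ± 0.11, limma adjusted p = 1.20e-07), and Dkc1, the pseudouridine synthase dyskerin (-1.32 ± 0.15, limma adjusted p = 1.11e-06). Myc fell from 2603 ± 76.6 to 1253 ± 98.3 (SD, n = 3; limma adjusted p = 2.51e-08). Of the 24 genes listed as mTOR and Myc regulators 3 rose, 4 fell and 17 were not called (median 0.19), and 13 rose and 5 fell without the 3 libraries. Among the 21 genes listed as translation factors 3 fell and 1 rose (median -0.27), close to the share of all genes called lower. The fit without the 3 libraries, none of which is in this comparison, called 15 of these 21 lower and 2 higher. In that fit 27.1% of all genes were called lower and 30.1% higher. The nucleolar chaperone Npm1, in that list, was at -0.64 ± 0.11 (limma adjusted p = 1.21e-04). Summed T cell markers were 1264 to 1393 in knockout IgG and 3251 to 3367 in the knockout combination, macrophage markers 438648 to 482286 and 351911 to 360807, and plasmacytoid markers 6006 to 7308 and 10831 to 11991, with Ly6d the 1 marker at 0, in IgG. Their part in the difference was not tested.

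**Figure D4:**
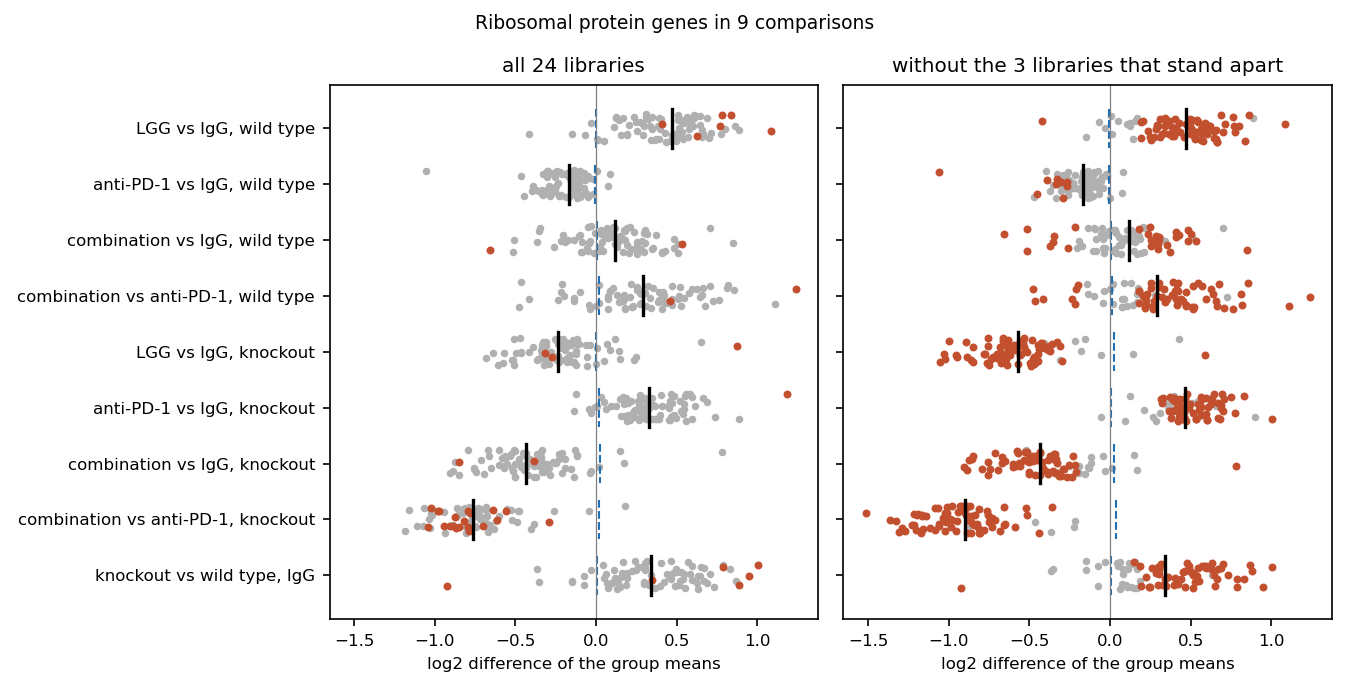
Log2 difference of each of the 83 ribosomal protein genes (horizontal axis) in 9 comparisons (vertical axis), from all 24 libraries (left) and without the 3 libraries that stand apart (right); red points passed an adjusted p of 0.05, black bars are the member medians and dashed blue bars the medians of all genes tested. In wild-type LGG the median was 0.47 in both panels with 6 and 69 members called, and in knockout LGG it moved from -0.24 to -0.57.

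Anti-PD-1 in knockout gave no usable direction. Its 3 libraries enclosed the IgG libraries in most members, so no member lay wholly above or below IgG (5.87% and 4.69% of all genes did), and 1 member rose and 0 fell (1.09% and 0.706% of all genes). The median of 0.33 became -0.10 without replicate 3 and 0.88, with 75 members higher, without replicate 2. Without the 3 libraries 63 were called higher (4.73% of all genes), which rests on replicate 1 alone and assumes that it varies like the other groups. The member that passed was Rpl35, at 1513, 1079 and 3090 against 598, 1121 and 639 in IgG (1.18 ± 0.30, limma adjusted p = 0.0481), and the library at 1079 overlaps IgG. Rpl39l (28.7, 16.2 and 49.4 against 17.6, 10.5 and 18.0; limma adjusted p = 0.204) and Rpl18 (38153, 20147 and 73027 against 24562, 27578 and 23161; limma adjusted p = 0.343) had the next smallest p-values and did not pass.

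Against this group the knockout combination had 20 members lower and 0 higher (17.0% and 19.7% of all genes; median -0.76, all genes 0.02). Only 3 members did not overlap, all lower (16.3% of all genes; 19.5% higher), and the count ran from 0 without replicate 3 of anti-PD-1 to 81 without replicate 2, with 2 or 3 without any other library compared. With the 3 libraries left out, 78 were lower and 0 higher (26.4% and 28.5%), again against 1 library, and when only the 2 groups were fitted none was called, with 2 at an unadjusted p under 0.05. Rpl3 was at 56711, 30563 and 102361 with anti-PD-1 and 29163, 27872 and 28837 in the combination (-0.97 ± 0.28, limma adjusted p = 0.00995). Rpl10a, a mobile protein of the L1 stalk, was at 30601, 15348 and 45528 against 14816, 14380 and 14147 (-0.94 ± 0.27, limma adjusted p = 0.00962). In both the second anti-PD-1 library was close to the combination and the third far above. Rpl4, at 52981, 29738 and 66252 against 30927, 29405 and 30393, overlapped (-0.64 ± 0.20, limma adjusted p = 0.0185).

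The difference in response between the genotypes was tested itself. For LGG, the knockout effect minus the wild-type effect had a median of -0.69 over the members (all genes 0.03), 81 of 83 were below 0, and 5 members were called, all lower (15.4% of all genes were called lower and 19.5% higher). Without the 3 libraries 78 were lower and 0 higher (28.7% and 34.1%; median -1.02), and without replicate 2 of knockout LGG alone 25. Without any other 1 library, 1 to 5 were lower. The calls were Rpl34 (-1.29 ± 0.44, limma adjusted p = 0.0282), Rps27l (-1.28 ± 0.43, limma adjusted p = 0.0258), Rpl15 (-0.72 ± 0.16, limma adjusted p = 0.00133), Rpl22l1 (-0.59 ± 0.19, limma adjusted p = 0.0184) and Rpl7l1 (-0.38 ± 0.15, limma adjusted p = 0.0499).
Rpl34 shows the pattern: wild type went from 19503, 17616 and 19692 to 34214, 33138 and 30074, and knockout from 30678, 32513 and 28498 to 17817, 34227 and 16111. The knockout IgG libraries thus stood near the wild-type LGG libraries, and 2 of 3 knockout LGG libraries near wild-type IgG. With the length and GC trend removed 28 members were lower and 2 higher (23.6% and 20.6% of all genes), and Rpl22l1 was at -0.16 and no longer called.

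For the combination the same difference had a median of -0.51 (all genes 0.04), 81 of 83 were below 0, and 3 members were called lower and 0 higher (14.0% and 19.8% of all genes), with 59 and 2 without the 3 libraries (25.8% and 30.6%). Rps27 was at -1.70 ± 0.62 (limma adjusted p = 0.0401), Rpl34 at -1.15 ± 0.44 (limma adjusted p = 0.0498) and Rpl15 at -0.49 ± 0.16 (limma adjusted p = 0.0212; 0.153 with the length and GC trend removed). Without any 1 of the 12 libraries compared, 0 or 1 member was lower. In Rps27 the wild-type combination libraries (33793, 27479 and 28562) were above IgG and the knockout ones (14439, 14576 and 14796) below their IgG libraries (23319, 29363 and 26693). Both differences use the same IgG libraries. Biogenesis genes differed between the genotypes in the other sense: 23 of 50 were called higher and 3 lower for LGG (median 0.56), with medians of -0.90 in wild type and -0.37 in knockout. The fit without the 3 libraries called 29 higher and 8 lower (median 0.37), with medians of -0.90 in wild type and -0.44 in knockout.

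**Figure D5:**
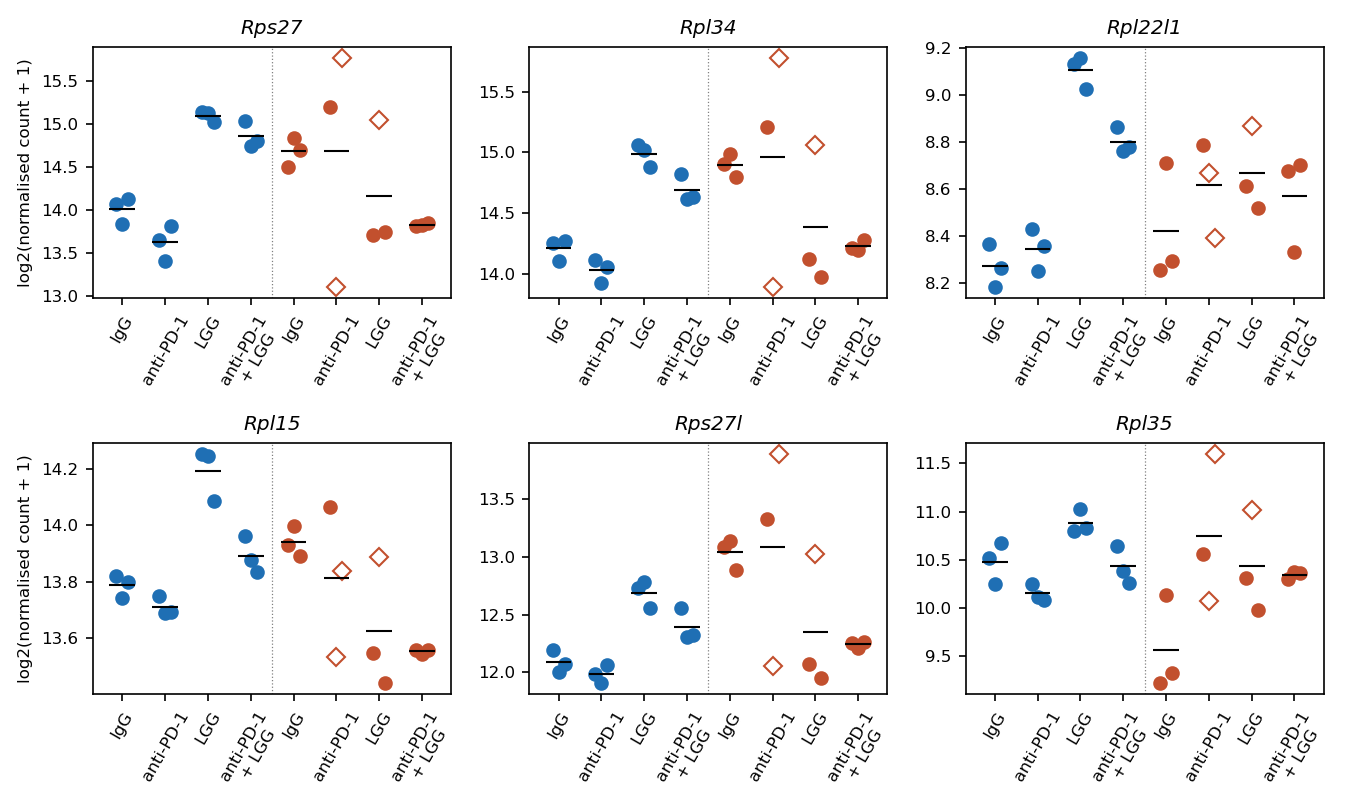
Level of Rps27, Rpl34, Rpl22l1, Rpl15, Rps27l and Rpl35 in each library (vertical axis, log2 of normalised count + 1, a separate range per gene) by group (horizontal axis), wild type in blue and labelled knockout in red; bars are means and open diamonds the 3 libraries that stand apart. For Rpl15 the wild-type LGG libraries lay between 17391 and 19509 normalised counts and the knockout combination libraries between 11935 and 12064.

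The balance of paralogs and their counterparts varied between groups. Rps27l counts were 26.4% ± 2.12 (SD, n = 3) of Rps27 counts in wild-type IgG, 18.8% ± 0.755 in wild-type LGG and 18.0% ± 0.373 in the wild-type combination, lower in all 6 libraries with LGG than in any IgG library. In knockout the share was 32.1% ± 4.63 in IgG and 33.1% ± 0.698 in the combination, which overlap. Rpl7l1 was 14.8% ± 0.726 of Rpl7 in wild-type IgG and 10.3% ± 0.590 in wild-type LGG (SD, n = 3), without overlap. Rpl36al and Rpl36a, which encode almost the same protein, had a ratio of at least 99.3% in each wild-type IgG library and of 76.1% ± 3.47 (SD, n = 3) in knockout IgG. That ratio also differed within genotypes, with means of 84.6% in wild-type LGG, 84.0% in knockout LGG and 96.3% in the knockout combination. Rpl36a is X-linked, so sex cannot be told apart from genotype here, and 85.5% of its windows are shared with other genes. Rpl39l never exceeded 0.280% of Rpl39, and Rpl3l never exceeded 0.206% of Rpl3. These ratios of counts are descriptions, are not scaled for transcript length, and were not tested.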

How the data were processed

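The deposited table gives, for 24 libraries, normalised counts per gene, a signal that the authors made from read counts: per the submitters' processing notes, STAR 2.4.0, HTSeq 0.6.1, DESeq2 and mm10 were used, with no role or order given. All values of each library were whole multiples of 1 step (tolerance 0.001), so whole reads were recovered for 100% of values, and they gave the depth and the count tests. Gene positions and lengths came from GENCODE vM21 (GRCm38), and start sequences from RefSeq (GRCm38.p6).

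The main test was limma 3.58.1 (R 4.3.3; trend and robust variance) on log2(normalised count + 1), with 1 mean per group over all 24 libraries. It ran on 12749 genes with a mean of at least 10, and Benjamini-Hochberg adjustment within each of 11 comparisons called an adjusted p under 0.05. Differences are on that log2 scale, which understates those of low genes. The limma procedure was tested on simulated counts with the same spread setting for all genes and libraries. No simulated library stood apart, so that test does not bear on how the 3 libraries affect the calls. Alternatives were edgeR 4.0.16 (quasi-likelihood) and DESeq2 1.42.0 on recovered reads, a pseudocount of 8, no filter, TMM scaling, scaling to the total, library weights, the replicate block, the compared libraries alone, removal of the trend on transcript length and GC content, and leaving out libraries. Tables and plots were made with Python 3.11.15.

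Named were the stalk genes, Rpsa and the paralogs with their counterparts where described, up to 4 called members with the largest rise and fall without overlap between groups in each comparison (the 3 with the smallest p where fewer than 3 passed), the members with extreme level or spread, and up to 3 genes of smallest p per other list. Other names, such as Myc, were chosen after their values were seen. The members and lists were chosen with earlier results of these data known.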

Additional observations from a re-analysis of the deposited data

Results flagged for a closer look

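The response to LGG differed between the genotypes, by a test of the difference itself in limma, in 5 of 83 ribosomal protein genes, all lower, where 15.4% of all genes were called lower and 19.5% higher. The knockout effect minus the wild-type effect was -1.29 log2 for Rpl34, -1.28 for Rps27l, -0.72 for Rpl15, -0.59 for Rpl22l1 and -0.38 for Rpl7l1, each with 12 libraries in the contrast. Without the 3 libraries that stand apart these values were -1.63, -1.62, -0.85, -0.69 and -0.49. With the length and GC trend removed Rpl22l1 was at -0.16 and not called, and leaving out 1 library in turn gave 1 to 25 members lower.

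The response to the combination differed in the same direction in 3 of 83 genes (14.0% of all genes were called lower and 19.8% higher), with -1.70 for Rps27, -1.15 for Rpl34 and -0.49 for Rpl15. None of the 3 libraries is in that contrast, and the values without them were the same. Leaving out any 1 of the 12 libraries gave 0 or 1 member lower, the replicate block gave 1, and Rpl15 had an adjusted p of 0.153 in limma with the length and GC trend removed. The libraries labelled knockout also differ from wild type in the Y-linked gene Ddx3y, so genotype and sex cannot be told apart in either difference.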

How the results depend on the processing

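Same-numbered libraries gave no sign of pairing. Over 84 such pairs the correlation of deviations ran from -0.83 to 0.56 (median 0.02), with 22 over 0.1. Over 168 pairs with different numbers it ran from -0.56 to 0.77 (median -0.01), with 44 over 0.1. The replicate block gave 3 members higher for wild-type LGG, 1 lower for knockout LGG, 0 higher for knockout anti-PD-1, 1 lower for the knockout combination against IgG and 5 against anti-PD-1, 3 higher in knockout IgG, and 1 lower for the genotype difference in the combination effect.

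Which libraries set the spread moved the counts most. Members called higher and lower without the 3 libraries that stand apart, with library weights and with only the compared libraries were, in that order: wild-type LGG 68 and 1, 73 and 1, 69 and 1; wild-type anti-PD-1 9, 30 and 21 lower; the wild-type combination 22 and 8, 19 and 11, 28 and 11, and against anti-PD-1 54 and 7, 52 and 9, 58 and 8. In knockout they were for LGG 74 lower, 3 and 72, 0 and 0; for anti-PD-1 63, 72 and 0 higher; for the combination 1 and 68, 1 and 67, 1 and 70, and against anti-PD-1 78, 79 and 0 lower. Knockout IgG gave 56 higher, 56 and 2, 56 higher. The genotype difference gave for LGG 78 (median -1.02), 79 and 15 lower, and for the combination 2 and 59, 2 and 54, 2 and 61.

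With the length and GC trend removed, wild-type LGG gave 12 and 4 (median 0.14), anti-PD-1 a median of -0.03, the combination 2 and 11 (-0.02) and against anti-PD-1 6 and 11 (-0.02). Knockout LGG gave 32 lower, anti-PD-1 2 higher, the combination 1 and 39 and against anti-PD-1 73 lower, knockout IgG 35 higher, and the genotype differences 2 and 28 for LGG and 2 and 15 (-0.28) for the combination. Rpl22l1 in the wild-type combination against anti-PD-1 turned to -0.04.

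Scaling to the total gave 1 lower and a median of 0.31 for wild-type LGG, 3 lower for the combination and 4 against anti-PD-1, 1 and 13 for the knockout combination and 42 lower against anti-PD-1, 1 and 2 (0.08) for knockout IgG, 11 lower for the LGG genotype difference and 2 and 6 for the combination. TMM scaling gave 1 lower for knockout LGG, 0 higher for knockout anti-PD-1 and 1 higher for the knockout combination, and a pseudocount of 8 gave 0 higher for knockout anti-PD-1. DESeq2 gave 5 higher for the wild-type combination against anti-PD-1, 1 and 7 for the knockout combination, 78 lower against anti-PD-1 and 5 lower for the combination genotype difference. edgeR gave 0 lower for knockout LGG, 4 lower for the knockout combination, 73 against anti-PD-1 and 5 for the combination genotype difference.

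Leaving out each library in turn gave ranges of 3 to 4 higher for wild-type LGG, 1 to 2 higher and 0 to 1 lower for the combination (median 0.03 to 0.17), and 1 to 3 higher against anti-PD-1. In knockout it gave 0 to 2 higher and 0 to 9 lower for LGG (median -0.57 to -0.01), 0 to 75 higher for anti-PD-1 (median -0.10 to 0.88), 0 to 1 higher and 1 to 1 lower for the combination, and 0 to 81 lower against anti-PD-1 (median -1.28 to -0.32). Knockout IgG ranged over 0 to 2 higher and 0 to 1 lower, and the genotype differences over 1 to 25 lower for LGG (median -1.02 to -0.47) and 0 to 1 in each direction for the combination. Among single named members 496 values kept direction and call, 140 lost the call, 34 gained it and 1 reversed; beyond the construction of each alternative the cause was not tested. Counting error weighs most on the 5 members with a mean under 1000 normalised counts: Rpl3l, Rpl24, Rpl39l, Rpl23a and Rpl22l1.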
